A study of Caenorhabditis elegans with 6 samples.

Results

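The genes described here encode the subunits of the proteasome in Caenorhabditis elegans. They were chosen by symbol alone: pas and pbs genes for the 20S core, rpn and rpt genes for the 19S cap. The rule found 33 of the 20189 protein-coding genes in the table, 14 of the core and 19 of the cap. Messenger RNA was measured by sequencing of whole hermaphrodites at L4, the last larval stage. In the CHX group, synchronized eggs were placed on plates with 500 µg/ml cycloheximide (CHX), an inhibitor of ribosome movement along the message, and animals were collected after 3 days. In the group without CHX they were placed on plates without the drug and collected after 2 days, so that both groups are labelled L4 while age and drug differed together and cannot be told apart. Oocyte markers were higher and sperm and cuticle markers lower on CHX, as given at the end, so the shared label does not show that the animals were equally far in development. There were 3 samples per group, all grown at 23 °C. Animals of both groups, the untreated ones included, were rpl-36A(P55Q)/mIn1 heterozygotes: they carried 1 altered copy of a gene for a large ribosomal subunit protein, over a balancer chromosome. Counts per gene cannot tell the alleles of rpl-36A apart. The series title names ribosomes that resist CHX, and the comparison asks which transcripts differ when such animals reach L4 on the drug.

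The proteasome is the main protease for proteins tagged with ubiquitin. Its barrel-shaped core is made of outer rings of alpha subunits, which gate the entrance, and inner rings of beta subunits, some of which carry the protease sites. The cap sits on the barrel. Its base holds a ring of ATPases that unfold the substrate and thread it inward, and its lid removes ubiquitin chains. Subunits of a complex are needed in fixed proportion, and in C. elegans the transcription factor SKN-1A, which the peptide N-glycanase PNG-1 and the protease DDI-1 process into its active form, raises transcription of proteasome genes when proteasome function is impaired.

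The libraries were shallow, with 385500 to 414781 counts per sample on CHX and 313767 to 360924 without it. Of all genes, 5641 had enough counts to be tested with edgeR's quasi-likelihood test, and 1419 of them (25.2%) had a Benjamini-Hochberg adjusted p under 0.05, 579 higher (10.3%) and 840 lower (14.9%) on CHX. With library totals in place of TMM factors, the split was 851 higher and 605 lower. All 33 proteasome genes passed the filter on low counts. Levels are given as CPM, the usual depth-scaled unit for read counts, taken over the tested genes and corrected with a TMM factor per library. Averaged over the 6 samples, the members had a median of 214 CPM, against 80.8 CPM for all tested genes. Summed over samples, the thinnest member, rpn-6.2, had 55 counts and the most counted, rpt-2, had 1573. Whether the 3 samples of a group were grown apart is not in the labels, and the p-values below therefore refer to sample-to-sample spread that could be technical. In whole animals, fewer cells of a type and less RNA per cell cannot be told apart.

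On CHX no proteasome gene differed from the untreated animals past the threshold. Of 33 members, 0 passed edgeR's test, against 25.2% of all tested genes. With DESeq2 and limma-voom 0 passed as well, against 1079 and 1376 of all 5641 tested genes. At an unadjusted p under 0.05 there was 1 member by each of the 3 tools, against 36.4% of all tested genes in edgeR, and without untreated replicate 2 there were 7 members, against 33.7% of all genes tested in that fit. The log2 fold changes, CHX over no CHX, ran from -0.72 for rpn-6.2 to 0.41 for rpn-8, with a median of -0.04, beside 0.02 for all tested genes. Their standard deviation over members was 0.27, and over all tested genes 0.84. No member reached a 2-fold difference in either direction, which 19.96% of all tested genes did. The members were also better measured than most, with a median standard error of 0.22 against 0.34 for all tested genes.

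The intervals put limits on the size of the differences. For 32 of 33 members the 95% interval of the fold change lay within 2-fold in both directions, against 1832 of all 5641 tested genes. The exception was rpn-6.2, with an interval from 3.83-fold lower to 1.41-fold higher. Within 1.5-fold in both directions lay 12 of the 33 intervals, against 362 of all 5641. The levels of the groups, CHX against no CHX, did not overlap for 3 members (9.09%), beside 39.7% of all tested genes. In 1 of them, rpn-9, the CHX samples were above (19.5% of all tested genes), and in the other 2, pas-3 and rpn-3, they were below (20.2%). With library totals in place of TMM factors, 5 members did not overlap, against 41% of all tested genes. In all 5 (rpn-2, rpn-8, rpn-9, pas-5 and pbs-4) the CHX samples were above, against 25.6% of all tested genes. In 0 they were below (15.4% of all tested genes), and pas-3 and rpn-3 overlapped.

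**Figure D1:**
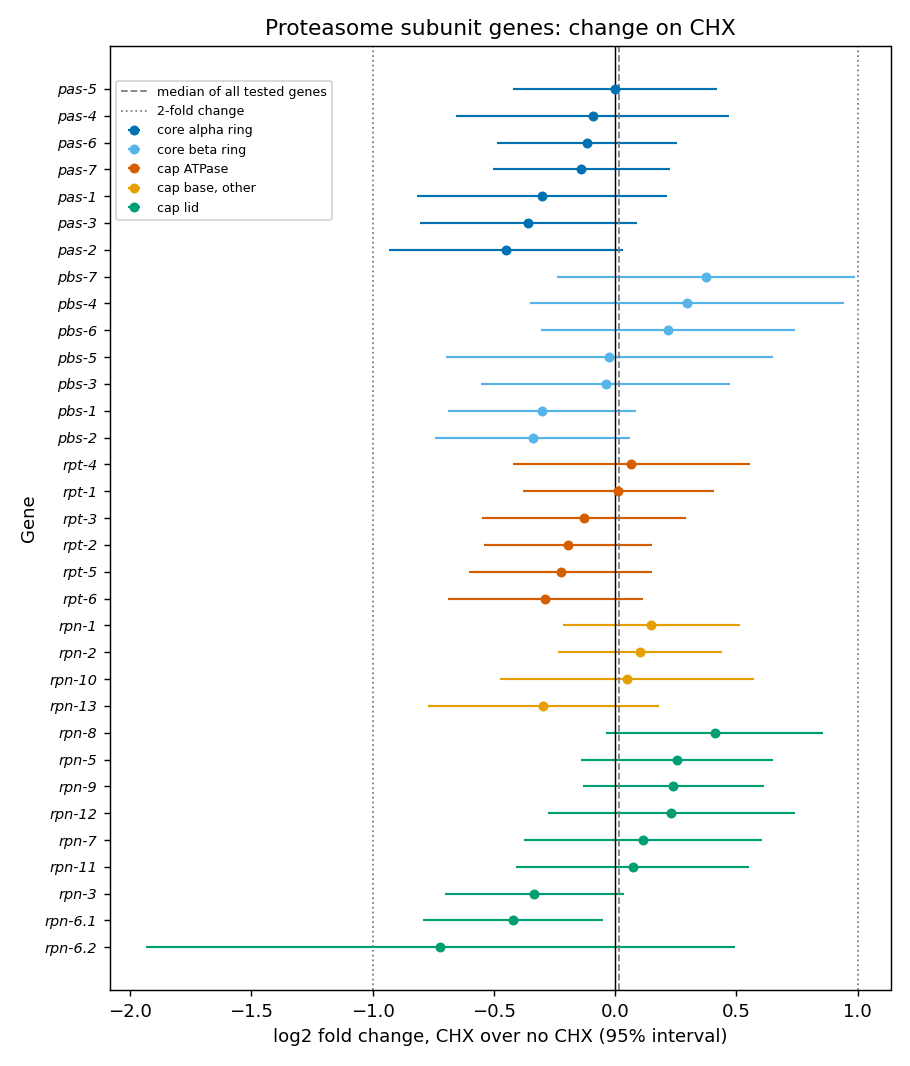
Log2 fold change (horizontal axis, CHX over no CHX) of each of the 33 proteasome genes (vertical axis), coloured by subcomplex, with 95% intervals from edgeR's quasi-likelihood fit, n = 3 per group. The intervals of 32 genes hold 0, rpn-6.1 is the exception, and only that of rpn-6.2 extends past the dotted 2-fold lines.

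The 7 alpha subunits form the rings that gate the core. All 7 log2 fold changes were at or below 0 with TMM factors, between -0.45 and 0.00 (median -0.14), but 3 of 7 were negative with library totals, so the sign rests on the scaling. The lowest was pas-2, with 125, 181 and 176 CPM on CHX, against 275, 181 and 205 CPM without it. Here 1 CHX sample was low and 1 untreated sample high, and the groups overlapped (log2 fold change -0.45, SE 0.24, edgeR adjusted p 0.166). For pas-3 the values were 204, 148 and 212 CPM on CHX, against 213, 279 and 230 CPM without it. The groups were separated by less than the spread within either (log2 fold change -0.36, SE 0.22, edgeR adjusted p 0.243). The alpha gene with the least spread across the samples was pas-5, singled out after its values were seen. It stood at 219 ± 6.23 CPM on CHX and 219.6 ± 7.09 CPM without it (SD, n = 3 each). Its counts were 86, 82 and 92 on CHX and 69, 72 and 60 without it. The spread was smaller than counting error alone would give, so it does not show a steadier level. The most abundant alpha gene, pas-7 (chromosome II, 10098782 to 10099854 in WBcel235), had 368, 353 and 363 CPM on CHX and 377, 469 and 346 CPM without it, with a single untreated sample standing above the rest (log2 fold change -0.14, SE 0.18, edgeR adjusted p 0.602).

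Among the 7 beta subunits, pbs-1, pbs-2 and pbs-5 carry the caspase-like, trypsin-like and chymotrypsin-like sites of the barrel, by their homology to yeast and mammalian subunits. The first of these, pbs-1, had 264, 272 and 373 CPM on CHX, against 426, 352 and 343 CPM without it (log2 fold change -0.30, SE 0.19, edgeR adjusted p 0.259). Its highest CHX sample lay above the lower 2 untreated ones. The values of pbs-2 were 279, 262 and 231 CPM on CHX, against 397, 263 and 318 CPM without it (log2 fold change -0.34, SE 0.20, edgeR adjusted p 0.215). The groups overlapped through 1 untreated sample. In C. elegans extra PBS-5 is known to raise proteasome activity and extend life. Transcripts of pbs-5 stood at 54.8, 132 and 84.2 CPM on CHX and at 98.3, 85.7 and 91.9 CPM without it, with the untreated samples in a narrow band inside the range of the CHX samples (log2 fold change -0.02, SE 0.33, edgeR adjusted p 0.963).

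The other 4 beta genes had no negative log2 fold change beyond -0.04, with a highest value of 0.37. That was pbs-7, with 159, 132 and 84.2 CPM on CHX, against 82.0, 104.1 and 102.5 CPM without it (log2 fold change 0.37, SE 0.30, edgeR adjusted p 0.386). The thinly counted pbs-4 had 78.3, 88.1 and 111 CPM on CHX, against 68.8, 82.7 and 74.2 CPM without it (log2 fold change 0.30, SE 0.32, edgeR adjusted p 0.527). In both genes 1 CHX sample lay within the untreated range. The annotation places pbs-7 on the same strand as an overlapping gene, K07A12.5, and pbs-4 opposite mrrf-1. In all, 11 of the 33 members overlap another protein-coding gene by genomic span, introns included. Overlap of the counted coding sequences was not tested. The use of strand in the counting is not given in the sources used here, so whether such pairs share reads cannot be told. Among the 22 members whose span meets no other protein-coding gene, 0 passed the test and the median log2 fold change was -0.10. These 22 include rpn-8, which overlaps the snoRNA gene R12E2.17 on the same strand, and rpn-9, opposite the ncRNA gene T06D8.12.

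The 6 rpt genes encode the ATPase ring of the base. Their log2 fold changes lay between -0.29 for rpt-6 and 0.07 for rpt-4, and none passed. The most abundant of them, rpt-2 (chromosome V, 6016049 to 6017669), had 655, 679 and 782 CPM on CHX, against 1065, 588 and 771 CPM without it. The highest and the lowest of its 6 values were both in untreated samples (log2 fold change -0.19, SE 0.17, edgeR adjusted p 0.43). Without the untreated replicate 1 its log2 fold change was 0.06. The gene fos-1 overlaps rpt-2 on the opposite strand.

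Other base subunits are rpn-1 and rpn-2, the large scaffold subunits, and the ubiquitin receptors rpn-13 and rpn-10, the last of which lies where base and lid meet. Their log2 fold changes were 0.15 (SE 0.18), 0.10 (SE 0.17), -0.30 (SE 0.23) and 0.05 (SE 0.26). In C. elegans loss of rpn-10 is known to be tolerated, unlike that of most subunits. Its levels were 154, 168 and 159 CPM on CHX, inside the range of 131, 214 and 117 CPM without it.

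The lid held both ends of the range. On the high side was rpn-8, a structural partner of the lid's deubiquitinase, with 269, 205 and 248 CPM on CHX, against 164, 214 and 163 CPM without it. An untreated sample reached into the CHX range (log2 fold change 0.41, SE 0.22, edgeR adjusted p 0.175; 0.0546 with library totals, and 0.0546 to 0.402 over the 14 alternatives). For rpn-5, a scaffold subunit of the lid, the values were 373, 301 and 334 CPM on CHX and 275, 340 and 226 CPM without it (log2 fold change 0.26, SE 0.19, edgeR adjusted p 0.357). The gene whose CHX samples all lay above the untreated ones, rpn-9, had 326, 360.3 and 330 CPM on CHX, against 282, 276 and 304 CPM without it (log2 fold change 0.24, SE 0.18, edgeR adjusted p 0.361). The deubiquitinase itself, rpn-11, had 172, 236 and 154 CPM on CHX and 154, 196 and 184 CPM without it, and the groups overlapped throughout (log2 fold change 0.07, SE 0.24, edgeR adjusted p 0.85).

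On the low side of the lid were rpn-3, rpn-6.1 and rpn-6.2. The scaffold gene rpn-3 had 290, 314 and 325 CPM on CHX, all below the 377, 346 and 449 CPM without it (log2 fold change -0.33, SE 0.18, edgeR adjusted p 0.185). The closest of all members to a call was rpn-6.1 (WBGene00004462; chromosome III, 6959110 to 6962027, minus strand), which joins lid to core and whose level is known to limit proteasome activity in C. elegans that lack a germline. It had 399.6, 441 and 402 CPM on CHX, against 708, 410.4 and 548 CPM without it. The CHX samples were close together while the untreated ones spread widely, and untreated replicate 2 lay within the CHX range. The log2 fold change was -0.42 (SE 0.18, 95% interval -0.79 to -0.05; unadjusted p 0.0267, edgeR adjusted p 0.0867). Without untreated replicate 2 it passed, at a log2 fold change of -0.61 (edgeR adjusted p 0.00908), and without untreated replicate 1 the log2 fold change was -0.20 (edgeR adjusted p 0.446). The call without replicate 2 was the single call of a member in any of the 14 alternatives; over these the adjusted p ran from 0.00908 to 0.446. Its paralog rpn-6.2 had 8, 14 and 2 counts on CHX and 8, 12 and 11 counts without it, too few to say more than its interval does (log2 fold change -0.72, SE 0.60, edgeR adjusted p 0.401).

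**Figure D2:**
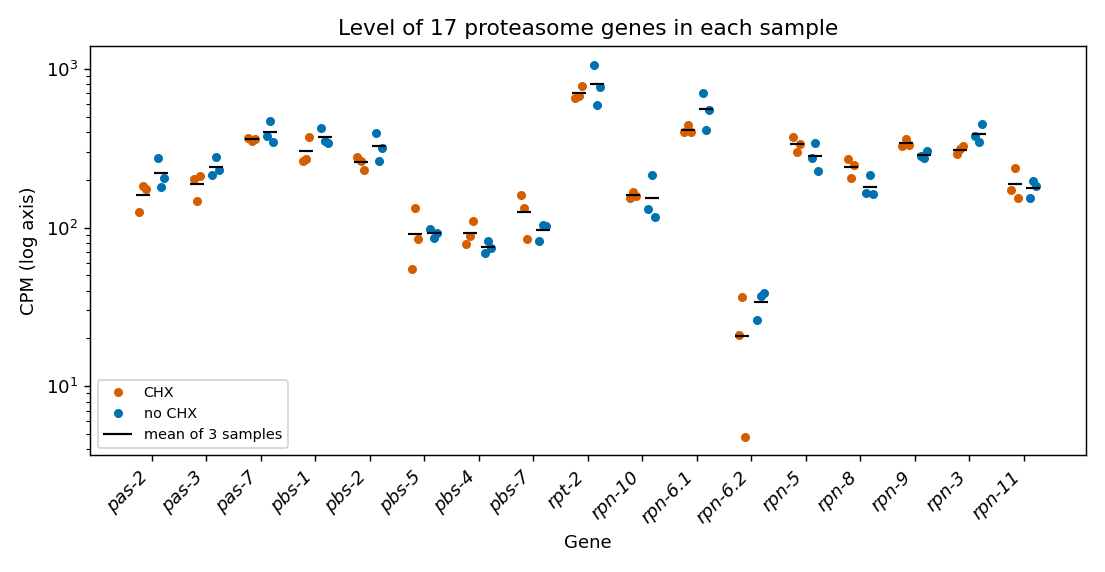
Level in CPM (vertical log axis) of 17 proteasome genes in each sample, with CHX samples left of the untreated ones for each gene and a bar at the mean of 3 samples. In rpn-6.1 and rpt-2 the untreated samples (410.4 to 708 and 588 to 1065 CPM) spread more widely than the CHX samples (399.6 to 441 and 655 to 782 CPM).

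Summed over its genes, each subcomplex can be read sample by sample. These sums were formed over a list chosen with results known and carry no test. The 9 lid genes together had 2204, 2239 and 2182 CPM on CHX, against 2265, 2199 and 2216 CPM without it. The means were 2208 ± 29.1 and 2227 ± 34.4 CPM (SD, n = 3 each), and the counting error was 3.99% on the lowest lid sum of 627 counts. With library totals the lid sums were 2328, 2347 and 2323 CPM on CHX, all above the 2078, 2128 and 2119 without it, with a log2 ratio of 0.15 in place of -0.01. Whether the lid stood level or higher on CHX thus rests on the scaling. With library totals the median log2 fold change of all tested genes moved as well, from 0.02 to 0.18. The 7 alpha genes had 1481, 1483 and 1580.4 CPM on CHX and 1724, 1807 and 1661 CPM without it. The CHX sums were all below the untreated ones, with a log2 ratio of means of -0.19, which was -0.04 with library totals. The 7 beta genes had 1105, 1270.1 and 1215 CPM on CHX and 1413, 1185 and 1209 CPM without it, and overlapped. For the 6 ATPase genes the sums were 1917, 2144 and 2199 CPM on CHX, against 2839, 1868 and 2301 CPM without it. The untreated samples spanned more than the CHX samples did, and the log2 ratio of -0.16 was 0.00 without untreated replicate 1 and -0.30 without untreated replicate 2.

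**Figure D3:**
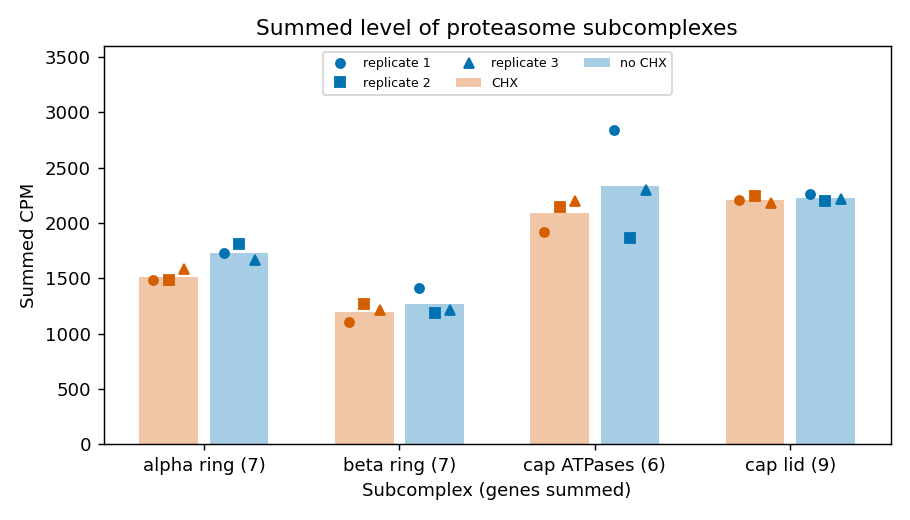
Summed CPM (vertical axis, from 0) of the genes of 4 proteasome subcomplexes, with bars at the mean of 3 samples and 1 marker per sample; CHX is left of no CHX. With TMM factors the lid sums lie at 2182 to 2265 CPM (with library totals they are 2323 to 2347 CPM on CHX and 2078 to 2128 CPM without it, apart), and the ATPase sums of the untreated samples run from 1868 to 2839 CPM.

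All 33 genes together took 0.792%, 0.830% and 0.846% of all counts on CHX, against 0.819%, 0.746% and 0.781% without it. The means were 0.823% ± 0.0281 and 0.782% ± 0.0362 (SD, n = 3 each), and the groups overlapped. With TMM factors the direction turned: the 33 genes summed to 8278 ± 267 CPM on CHX and 8789 ± 616 CPM without it (SD, n = 3 each), a log2 ratio of -0.09, and the groups overlapped as well. Ratios between subcomplexes within a sample do not depend on how libraries are scaled. Per kilobase of coding sequence, the mean cap gene stood at 0.832, 0.833 and 0.812 of the mean core gene on CHX, against 0.820, 0.716 and 0.800 without it (0.826 ± 0.0118 and 0.779 ± 0.0551, SD, n = 3 each), which overlapped. The same ratio for the lid alone was 0.826, 0.794 and 0.761 on CHX, against 0.689, 0.712 and 0.729 without it, without overlap. The lid was picked out for this after its values were seen, so the ratio is a description.

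Although the assembled complex holds its subunits in fixed proportion, the measured levels of their transcripts were not equal. Per kilobase of coding sequence, the highest of the 14 core genes exceeded the lowest by 3.23-fold to 7.63-fold in single samples. At the top stood pas-7, with 482 ± 10.7 CPM per kb on CHX and 529.8 ± 84.7 without it, and pbs-1, with 417 ± 83.6 on CHX and 515 ± 62.8 without it (SD, n = 3 each). Each of the 2 was the highest core gene in 3 of the 6 samples, so their order does not stand beyond the spread. At the bottom stood pbs-5, with 106 ± 45.8 CPM per kb on CHX and 108 ± 7.39 without it, which was the lowest core gene in 4 of 6 samples, the other 2 having pbs-4 lowest. The catalytic genes kept the order pbs-1, pbs-2, pbs-5 in all 6 samples. Of the genes named here, pas-7 and pbs-4 overlap lact-2 and mrrf-1 on the opposite strand, so their counts may include reads of these.

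In the cap, rpt-2 was the highest of 19 genes per kilobase in all 6 samples, at 531 ± 50.5 CPM per kb on CHX and 608 ± 181 without it (SD, n = 3 each). Next in the untreated animals was rpn-6.1, at 315 ± 17.6 on CHX and 423 ± 113 without it. The paralog rpn-6.2 was the lowest, at 16.6 ± 12.6 on CHX and 27.2 ± 5.43 without it. With rpn-6.2 set aside, the other 18 cap genes spanned 3.83-fold to 8.59-fold in single samples.

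**Figure D4:**
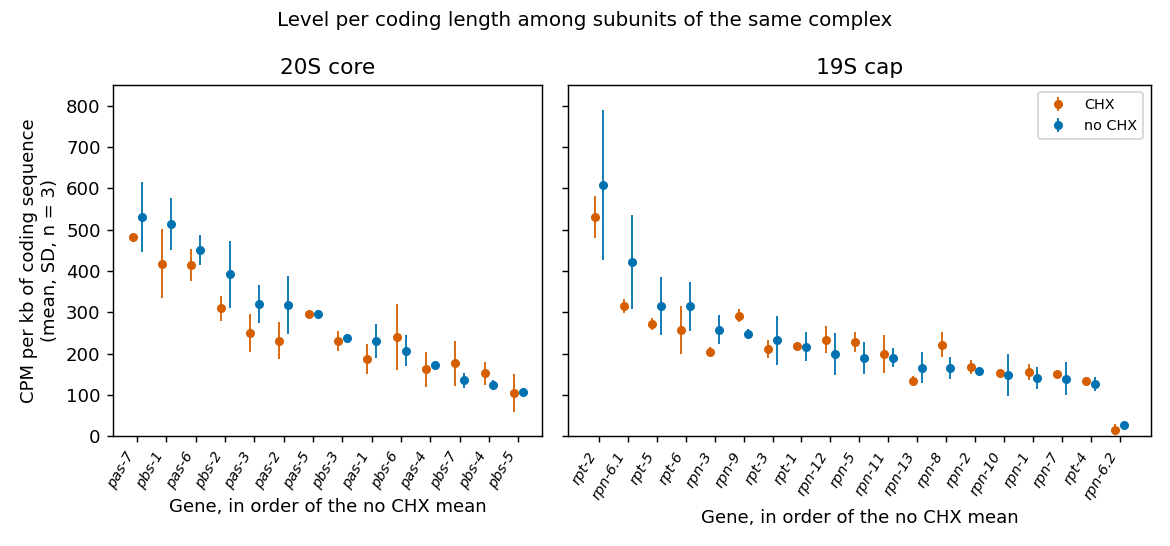
Mean level with SD (n = 3 per group) in CPM per kilobase of coding sequence for the 14 core genes (left) and 19 cap genes (right), ordered by the untreated mean, with CHX left of no CHX for each gene. The order runs from pas-7 to pbs-5 in the core and from rpt-2 to rpn-6.2 in the cap, and the ranges of CHX and no CHX lie close together along it.

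Around the proteasome, 6 lists of genes, of the ubiquitin pathway and of SKN-1 outputs, were read from the same fit. Of their 57 tested genes 4 rose and 3 fell, beside 10.3% higher and 14.9% lower among all tested genes. Of 10 tested proteasome-associated genes, 0 rose and 1 fell by edgeR's test (median log2 fold change -0.14). This was ubh-4, for a deubiquitinase that binds the cap, at 49.6, 64.8 and 60.1 CPM on CHX, against 82.0, 171 and 95.4 CPM without it (log2 fold change -1.002, SE 0.34, edgeR adjusted p 0.0289). The groups were apart, with 1 untreated sample far above the others. The call was lost without that sample, untreated replicate 2 (log2 fold change -0.61, edgeR adjusted p 0.257), and in 6 of 14 alternatives in all, including without CHX replicate 1 or 3. The SKN-1 gene, skn-1, stood at 167, 122 and 132 CPM on CHX and at 128, 70.4 and 88.4 CPM without it (log2 fold change 0.56, SE 0.29, edgeR adjusted p 0.169). Its processing factors had log2 fold changes of 0.70 for png-1 (SE 0.46, edgeR adjusted p 0.28) and -0.14 for ddi-1 (SE 0.42, edgeR adjusted p 0.839). Counts of skn-1, like all counts here, were taken on the coding region of a single named transcript. How they divide among its isoforms was not tested. The small lid subunit gene dss-1, which the symbol rule does not cover, was too thin to test, with 8, 5 and 11 counts on CHX and 2, 5 and 7 counts without it.

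Ubiquitin itself and the enzymes that charge and carry it made up 16 tested genes, of which 2 rose and 0 fell (median log2 fold change -0.07). The E2 enzyme gene ubc-25 had 316, 347 and 330 CPM on CHX, against 141, 171 and 194 CPM without it, a 1.96-fold rise with the groups far apart (log2 fold change 0.97, SE 0.20, edgeR adjusted p 0.000713). The polyubiquitin gene ubq-1 had 1308, 1428 and 1340 CPM on CHX, against 787, 959 and 1280 CPM without it (log2 fold change 0.43, SE 0.15, edgeR adjusted p 0.0292). Its lowest CHX sample stood just above the highest untreated one. The call was lost in 5 of 14 alternatives (without untreated replicate 1 or 2, without CHX replicate 2 or 3, and with DESeq2). Polyubiquitin genes repeat near-identical coding units whose reads may be shared. Another ubiquitin gene of this list, ubq-2, went the other way without a call (log2 fold change -0.29, SE 0.13, edgeR adjusted p 0.0994). It had 1042, 1032 and 1013 CPM on CHX, all below the 1200, 1222 and 1347 CPM without it. Of 6 tested genes for the unfoldase CDC-48, which extracts ubiquitinated proteins, and its cofactors, 1 rose and 0 fell (median 0.12). It was the cofactor gene ufd-3, at 319, 334 and 327 CPM on CHX, against 154, 220 and 205 CPM without it (log2 fold change 0.76, SE 0.20, edgeR adjusted p 0.00608). The calls of ubc-25 and ufd-3 held in all 14 alternatives.

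Of 14 tested genes of cullin ubiquitin ligases, 0 passed edgeR's test (median 0.25). The COP9 signalosome, which regulates cullins and whose subunits are related to those of the proteasome lid, had 7 tested genes, of which 1 rose and 1 fell (median 0.42). The first was csn-4, at 99.2, 103.7 and 60.1 CPM on CHX, against 26.2, 49.0 and 28.3 CPM without it (log2 fold change 1.32, SE 0.40, edgeR adjusted p 0.0145), a call lost without CHX replicate 1 or 2 or untreated replicate 3 (edgeR adjusted p 0.0612, 0.0677 and 0.0505). The second was cif-1, which COP9 shares with translation initiation factor eIF3, at 350, 508 and 385 CPM on CHX and 613, 527 and 622 CPM without it (log2 fold change -0.50, SE 0.17, edgeR adjusted p 0.0315; lost in 8 of 14 alternatives, among them without CHX replicate 1 or 3 or untreated replicate 1 or 3). Outputs of SKN-1 were listed without regard to its isoforms, so they are not a reading of SKN-1A alone. Of 4 tested genes known as such outputs, 0 rose and 1, the glutathione S-transferase gene gst-10, fell (median -0.66). It had 7, 7 and 12 counts on CHX and 10, 50 and 23 counts without it, and its log2 fold change of -2.02 (SE 0.48, edgeR adjusted p 0.0023) was -1.37 without untreated replicate 2 (edgeR adjusted p 0.0811).

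**Figure D5:**
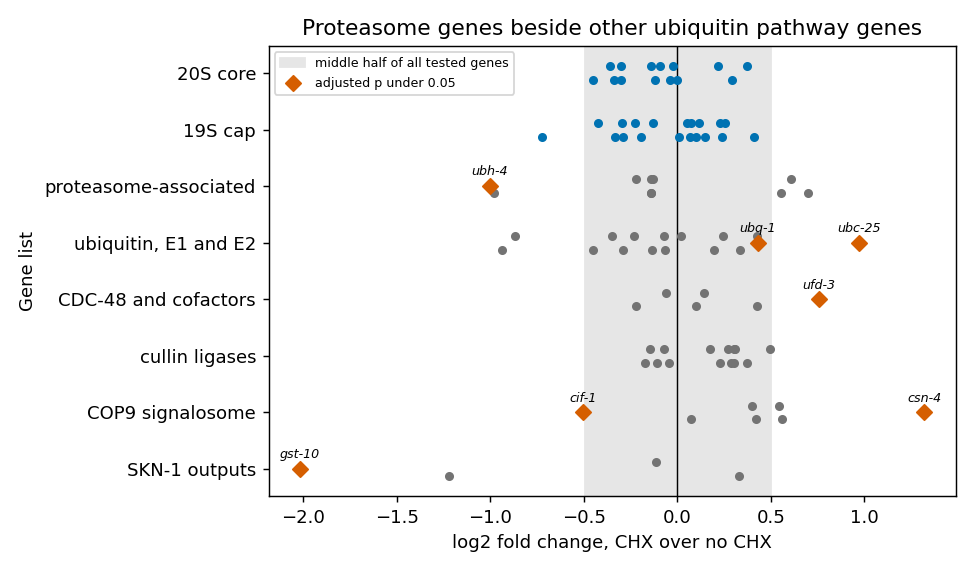
Log2 fold change (horizontal axis, CHX over no CHX) of the tested genes of each group (vertical axis). The groups are the 20S core, the 19S cap and 6 lists of ubiquitin pathway genes and SKN-1 outputs. Diamonds are genes with an edgeR adjusted p under 0.05. The grey band runs from the lower to the upper quartile of all tested genes. No core or cap gene is called, and rpn-6.2 is the only one of the 33 outside the band.

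Markers of several tissues differed between the same samples. Of 8 tested oocyte markers 8 rose on CHX and their summed level was 9819 to 10645 CPM, against 2830 to 3956 CPM without it. All 5 tested muscle markers fell (4562 to 4958 CPM on CHX, against 6140.3 to 8823 CPM without it), as did all 4 tested of 5 cuticle markers (1026 to 1734 CPM, against 2511 to 2833 CPM). Of 5 sperm markers 3 fell and 0 rose (340 to 488 CPM, against 824 to 919 CPM). Of 4 tested intestinal markers 1 fell and 0 rose (10289 to 18017 CPM, against 16031 to 17646 CPM). The 1 tested of 4 neuronal markers did not pass, and their sums overlapped (91.4 to 137 CPM, against 81.3 to 131 CPM). The part of these shifts in the level of any proteasome or ubiquitin pathway gene was not tested.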

How the data were processed

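Messenger RNA of 6 whole-animal samples was sequenced after ribosomal RNA depletion with RNase H, per the labels' protocols. The deposited values are unnormalized counts, 1 per gene, each taken on the coding region of a single named transcript, per the file headers. WBcel235 and DESeq2 appear in the submitters' processing notes. How reads were aligned and counted, and whether strand was used, is not given in the sources used here. No molecular identifiers are named in the labels, so counting errors cover counting only.

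Counts were analysed across the whole table in R 4.3.3 with edgeR 4.0.16 (filterByExpr with minimum count 10 and minimum total 15, TMM factors, robust quasi-likelihood F-test, Benjamini-Hochberg adjustment over 5641 genes, threshold 0.05). Standard errors are the absolute log2 fold change over the square root of F. The code was tested on simulated data. Alternatives were other scalings, filters and tools (DESeq2 1.42.0, limma 3.58.1), a replicate block, and each replicate left out. Shares of all counts, summed levels of subcomplexes, the lid to core ratio and counts of groups without overlap were added after seeing the data. Coding length was read from Ensembl's gene models on WBcel235, for 25 members by transcript and for 8 by coding sequence name. All pairs of replicates differed by more than sampling noise (chi-square per degree of freedom 2.22 to 3.15 within groups). Genes were named by rule (extremes of fold change and level in core and cap, catalytic genes, rpn-6.1, rpn-10, rpn-11, called pathway genes, skn-1, ddi-1, png-1 and dss-1); pas-5, rpn-1, rpn-2, rpn-3, rpn-9, rpn-13, rpt-4 and rpt-6 were named after their values were seen. Of 78 pathway genes listed, 75 matched the table by symbol, and ubq-2 among them was named after its values were seen. The members and lists were chosen with earlier results of these data known. Figures were drawn with matplotlib 3.10.9.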

Additional observations from a re-analysis of the deposited data

How the results depend on the processing

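Of 462 member values under 14 alternatives, 429 kept their sign and their side of the threshold, 32 in 13 members changed sign without a call, and 1 became a call (rpn-6.1 without untreated replicate 2). The count of proteasome genes called was 0 throughout, apart from 1 without untreated replicate 2, so that it ran from 0 to 1 with a replicate left out. Counts of all genes called ran from 984 to 1474, within 1.5 times of 1419. With library totals the median of all tested genes moved from 0.02 to 0.18 and that of the members from -0.04 to 0.12, a distance of -0.06 from all genes in both, while the calls over all genes were 851 higher and 605 lower. The log2 ratios of summed levels with library totals were 0.0123 for the core, 0.10 for the cap, -0.0353 for the alpha ring, 0.0749 for the beta ring and 0.15 for the lid, and 5 members did not overlap, against 41% of all tested genes. The difference in the cap to core ratio was 0.12 on raw counts and 0.05 per kilobase. Log2 fold changes that changed sign were, with library totals, pas-4 0.0618, pas-5 0.16, pas-6 0.0426, pas-7 0.016, pbs-3 0.12, pbs-5 0.13, rpt-3 0.0305 and ddi-1 0.0157. Without the low-count filter they were pas-5 0.0564, pbs-3 0.0177 and pbs-5 0.0314, and with the filter at 5 CPM pas-5 0.0281 and pbs-5 0.0029. That of pas-5 was 0.0025 with RLE factors, 0.0202 with upper-quartile factors and 0.0026 with DESeq2. With a replicate left out the ranges were pas-4 -0.298 to 0.086, pas-5 -0.0394 to 0.0367, pbs-3 -0.0894 to 0.0581, pbs-5 -0.381 to 0.236, rpt-1 -0.119 to 0.134, rpt-2 -0.393 to 0.0606, rpt-3 -0.332 to 0.0247, rpt-4 -0.0374 to 0.153, rpn-7 -0.105 to 0.246, rpn-10 -0.126 to 0.359, rpn-11 -0.112 to 0.21 and ddi-1 -0.314 to 0.0268. The cause of these changes was not tested. Replicate numbers did not pair the samples (correlation of same-numbered deviations -0.05 to -0.01). With a replicate block 0 members and 1225 genes were called and the members' median was -0.08; of the pathway genes named, cif-1 lost its call (adjusted p 0.0549). The intervals of 21 of 33 members reached beyond 1.5-fold; counting error and the spread between 3 samples both enter them, and their shares were not tested.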
